A study of Mus musculus with 2 samples.

Results

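Transcription factor genes that pattern the hypothalamus were read from total RNA-seq of mouse forebrain at embryonic day 13.5. The members are 10 genes chosen by name, Otp, Sim1, Rax, Fezf1, Nkx2-2, Nkx2-4, Nr5a1, Hmx2, Hmx3 and Six6, of 42442 mouse genes with a symbol, 21473 of them protein-coding. All 10 were found in the gene tables of both libraries. The series holds 1 group of 2 libraries from the B6NCrl strain, made from forebrain of healthy embryos of both sexes pooled, with 10 ng of RNA and spike-ins in each. The labels call them biological replicates, number them 1 and 2, and give both the same donor code. Total expected counts, the estimated reads summed over all rows, were 35378462 in replicate 1 and 36793284 in replicate 2. With 1 group there is no contrast between conditions and no p-value, and what follows describes levels and the difference between the libraries, which may be technical.

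The hypothalamus forms in the ventral forebrain under the influence of Sonic hedgehog from the midline, and becomes divided into nuclei that control hormones, feeding and body temperature. Transcription factors with local expression mark its parts. In mouse, Otp, a homeodomain factor, and Sim1, a bHLH-PAS factor, are needed for the neurosecretory neurons of the paraventricular and supraoptic nuclei. Nr5a1, the nuclear receptor also called SF-1, is needed for the ventromedial nucleus, and Hmx2 and Hmx3, a pair of related homeodomain factors, for the growth hormone-releasing hormone neurons of the arcuate nucleus. Most of these genes also act in other parts of the embryo.

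Of the 10 members, 5 reached 1 TPM in both libraries, beside 59.0% of all protein-coding genes, and Fezf1 and Otp were the highest. Of the 9 members with enough reads, 7 differed at least 1.5-fold between the libraries, in opposite directions. Fezf1, Otp and Sim1 were 2.90-fold, 2.87-fold and 4.33-fold higher in replicate 1. Six6, Hmx2, Hmx3 and Nr5a1 were 2.10-fold, 2.15-fold, 1.77-fold and 1.63-fold higher in replicate 2, with overlapping deposited intervals for Hmx2 and Hmx3. Among all protein-coding genes with a mean of at least 10 expected counts, 6.62% were at least 1.5-fold higher in replicate 1 and 2.03% in replicate 2. Nkx2-2 was nearly equal in both. In bulk tissue, fewer cells of a type and less RNA per cell cannot be told apart.

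Levels are given in TPM, the relative abundance of transcripts, which is scaled by length and so can be compared between genes. The median of the 10 members was 1.66 TPM, taken over mean levels (1.16 TPM in replicate 1 against 1.40 TPM in replicate 2), against 3.92 TPM over all protein-coding genes. The 5 members at 1 TPM or more in both libraries were Fezf1, Otp, Nkx2-2, Six6 and Nr5a1, and 4 members stayed under 1 TPM in both. The order by mean level was Fezf1, Otp, Nkx2-2, Sim1, Six6, Nr5a1, Rax, Hmx2, Hmx3 and Nkx2-4. Fezf1 lay above Otp, and Otp above Nkx2-2, without overlap of the 2 libraries. From Nkx2-2 to Nr5a1 the values of neighbouring genes overlapped, as they did from Rax to Nkx2-4, so the order within these blocks is not fixed. The blocks themselves also overlapped, since Sim1 (0.82 TPM) lay below Hmx2 (0.86 TPM) in replicate 2. By mean level Fezf1 lay at percentile 72.3 of all protein-coding genes, Otp at 53.7 and the other 8 at 46.7 or lower. The members summed to 52.5 TPM in replicate 1 against 24.5 TPM in replicate 2, of which Fezf1 alone gave 33.8 and 11.6 TPM. Sim1 was in position 3 in replicate 1 and in position 7 in replicate 2.

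**Figure D1:**
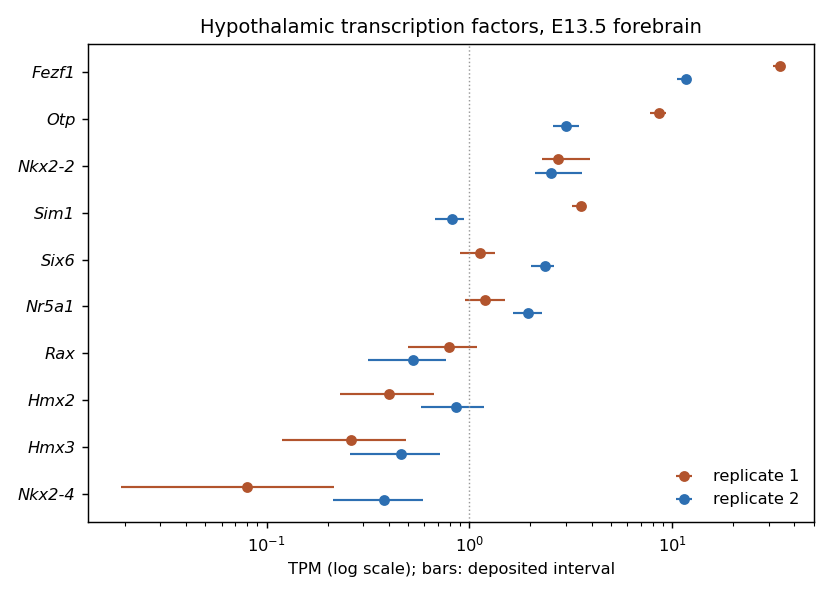
TPM of each member in replicate 1 (brown) and replicate 2 (blue) on a log axis, in order of the mean, with the interval deposited by the authors, whose level is not stated. The dotted line marks 1 TPM. Otp, Sim1 and Fezf1 lie higher in replicate 1 with intervals apart, and Six6 and Nr5a1 higher in replicate 2 with intervals apart.

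Otp and Sim1 act together in the neurosecretory lineage and were both higher in replicate 1. Otp (chromosome 13, 94875602 to 94885130, plus strand, mm10) had 8.62 TPM in replicate 1 against 3.0 TPM in replicate 2, from 486 and 186 expected counts. The 2.87-fold ratio had a 95% interval of 2.42 to 3.42 from counting error alone. Sim1 (chromosome 10, 50894754 to 50989152, plus strand) had 3.55 TPM in replicate 1 against 0.82 TPM in replicate 2, from 573 and 144 counts, a ratio of 4.33 (95% counting interval 3.60 to 5.23). For both genes the deposited TPM intervals did not overlap. Almost all of Otp came from its full-length coding transcript (99.0% in replicate 1 and 100% in replicate 2), and Sim1 has a single transcript in the annotation used. The nearest coding neighbours were more alike in both libraries. Tbca, beside Otp, had 251 TPM in replicate 1 against 268 TPM in replicate 2, and Ascc3, beside Sim1, had 9.99 and 8.92 TPM.

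Fezf1, a zinc finger repressor that marks the ventromedial hypothalamus and also the prethalamus and the olfactory epithelium, was the highest member. Fezf1 (chromosome 6, 23245044 to 23248362, minus strand) had 33.8 TPM in replicate 1 against 11.6 TPM in replicate 2, from 1659 and 623 counts, a ratio of 2.90 (95% counting interval 2.65 to 3.19). Its neighbour Cadps2 had 4.14 TPM in replicate 1 against 2.65 TPM in replicate 2. Nr5a1 (chromosome 2, 38692656 to 38714542, minus strand) is the other member used as a marker of the ventromedial nucleus. It was far lower, at 1.19 TPM in replicate 1 against 1.94 TPM in replicate 2 from 75 and 134 counts, and its difference ran the other way, 1.63-fold higher in replicate 2 (95% counting interval 1.22 to 2.19). Their mean levels were 22.7 ± 15.7 and 1.57 ± 0.53 TPM (SD, n = 2). The authors' estimate gave 69.2% of Nr5a1 in replicate 1 and 85.1% in replicate 2 to the coding transcript that starts at the inner of its promoters (its start at position 38712234). Posterior means gave that transcript 57.4% and 62.6%.

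Of the arcuate and ventral factors, the deposited intervals lay apart for Six6, with replicate 2 higher, and overlapped for Hmx2, Hmx3 and Rax. Six6 (chromosome 12, 72939892 to 72944899, plus strand), a homeodomain factor of the eye field, pituitary and ventral hypothalamus, had 1.13 TPM in replicate 1 against 2.37 TPM in replicate 2, from 98 and 225 counts. It was 2.10-fold higher in replicate 2 (95% counting interval 1.65 to 2.69). Its exons share 192 bases with those of 4930447C04Rik on the other strand, which had 1.69 TPM in replicate 1 against 1.44 TPM in replicate 2. No label or header states the strand setting, so reads from the shared bases may be assigned to either gene. Rax (chromosome 18, 65928277 to 65939787, minus strand), the retina and anterior neural fold homeobox gene, had 0.79 TPM in replicate 1 against 0.53 TPM in replicate 2, from 27.5 and 20 counts. The ratio of 1.49 had a counting interval of 0.791 to 2.75, so no difference was detectable at this depth. Its antisense gene Raxos1 shares 1604 exonic bases with it, beside a Rax length of 1669 bases, and had 2.52 counts in replicate 1 and none in replicate 2. In replicate 1 both counts were fractional (27.48 and 2.52), as happens where reads are divided between features. Without a stated strand setting, reads of Rax and Raxos1 cannot be told apart.

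Hmx2 and Hmx3 lie 3848 bases apart on chromosome 7 and both were near the detection limit. Hmx2 (131548773 to 131558014, plus strand) had 0.40 TPM in replicate 1 against 0.86 TPM in replicate 2, from 13 and 30 counts, a ratio of 2.15 in favour of replicate 2 (95% counting interval 1.09 to 4.49). Hmx3 (131542867 to 131544925, plus strand) had 0.26 TPM in replicate 1 against 0.46 TPM in replicate 2, from 8 and 15 counts, and its interval of 0.704 to 4.82 includes no difference. The deposited TPM intervals of both genes overlapped between the libraries. Both lie within the annotated span of Fgfr2 on the other strand, which had 50.1 TPM in replicate 1 against 40.8 TPM in replicate 2, and share no exonic base with it. That span (130162451 to 133123350) is from GENCODE M21 and can differ from the M4 release behind the counts. Whether transcription of Fgfr2 reaches Hmx2 and Hmx3 was not tested. The next coding gene beyond Hmx2 is Bub3, a spindle checkpoint gene 2208 bases away, which had 203 TPM in replicate 1 against 195 TPM in replicate 2.

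Nkx2-2 and Nkx2-4 are homeodomain factors of the same family that lie 92101 bases apart on chromosome 2. Nkx2-2 (147177546 to 147194243, minus strand), a hedgehog-induced gene of the ventral neural tube, had 2.72 TPM in replicate 1 against 2.51 TPM in replicate 2, from 101 and 99 counts, and its deposited intervals overlapped. Its leading coding transcript held 76.4% of the gene in replicate 1 and 71.3% in replicate 2. Its antisense gene Nkx2-2os shares 278 exonic bases with it and had 1.04 counts in replicate 1 and none in replicate 2. As for Rax, reads from the shared bases may be assigned to either gene. Nkx2-4 (147083316 to 147085445, minus strand) had 0.08 TPM in replicate 1 against 0.38 TPM in replicate 2, from 3 and 15 counts. This ratio of 4.75 in favour of replicate 2 had a counting interval of 1.34 to 25.6. Nkx2-4 missed the minimum mean count of 10 and is left out of the counts of differences.

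Promoter sequence is shown for Otp and Fezf1, which were higher in replicate 1. It is also shown for the adjacent pair Hmx2 and Hmx3, whose deposited intervals overlapped between the libraries. The windows come from RefSeq on GRCm38.p6 and end before the first annotated exon base. Each runs 5′ to 3′ on the gene's strand, and capitals mark a CCAAT box (CCAAT, or ATTGG on the other strand) or a TATA box (TATAAA, or TTTATA on the other strand).
Otp, chr13:94875386-94875601, plus strand: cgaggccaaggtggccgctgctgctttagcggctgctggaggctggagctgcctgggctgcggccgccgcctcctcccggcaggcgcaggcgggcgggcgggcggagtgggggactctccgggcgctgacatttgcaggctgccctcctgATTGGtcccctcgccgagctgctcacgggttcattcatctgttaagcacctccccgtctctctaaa
Fezf1, chr6:23248363-23248514, minus strand: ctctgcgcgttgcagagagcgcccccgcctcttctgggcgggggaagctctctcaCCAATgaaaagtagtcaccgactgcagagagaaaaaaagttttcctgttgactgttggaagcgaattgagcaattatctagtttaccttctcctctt
Hmx2, chr7:131548507-131548756, plus strand: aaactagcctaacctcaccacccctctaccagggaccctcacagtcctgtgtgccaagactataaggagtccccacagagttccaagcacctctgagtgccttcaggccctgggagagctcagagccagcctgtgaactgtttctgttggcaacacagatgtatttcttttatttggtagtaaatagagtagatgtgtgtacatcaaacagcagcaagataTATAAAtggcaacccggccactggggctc
Hmx3, chr7:131542713-131542866, plus strand: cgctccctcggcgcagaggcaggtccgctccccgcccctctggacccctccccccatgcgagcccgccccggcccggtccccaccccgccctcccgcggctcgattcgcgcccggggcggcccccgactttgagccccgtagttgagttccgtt

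RefSeq windows were found for 8 of the 10 members, and Hmx2 has a pair of them. Over the full 250 bases before the start, Hmx3 held 31 CG dinucleotides and Nkx2-4 held 33, against a median of 6 over all 32851 windows. These were the highest of the members, whose other windows held 1 to 21. Of the 250 bases, 154 in Hmx3 and 150 in Nkx2-4 lie before the first annotated exon. The upstream window of Hmx2 held 1 CG dinucleotide and a TATA box match. Its inner window, whose start lies inside the gene, held 21 CG dinucleotides and no TATA box match. Only the first 18 bases of that window lie before an annotated exon, so most of its letters are not upstream sequence. All expected counts of Hmx2 went to the coding transcript that begins just after the upstream window, 13 in replicate 1 and 30 in replicate 2. None went to its other coding transcript, which begins at 131554061, inside the inner window. Neither transcript begins at the inner RefSeq start, so these counts do not describe its use. Posterior means left that other transcript 34.1% in replicate 1 and 28.7% in replicate 2, so the split is uncertain. A TATA box match was present in 12.4% of all windows and a CCAAT box match in 33.9%. These matches are descriptions of letters and not of binding.

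The libraries were then set against each other over the 14566 protein-coding genes whose expected counts averaged 10 or more. Of these, 6.62% were at least 1.5-fold higher in replicate 1 and 2.03% at least 1.5-fold higher in replicate 2, on TPM without a pseudocount. With TMM-scaled counts the shares were 4.45% and 2.38%. Of the 9 members tested, 3 were so in replicate 1 (Fezf1, Otp, Sim1) and 4 in replicate 2 (Hmx2, Hmx3, Nr5a1, Six6), by either scaling. Among the 7825 genes within the members' own range of counts (11.5 to 1141) the shares were 11.4% for replicate 1 and 3.37% for replicate 2. At 2-fold the members counted were 3 in replicate 1 (Fezf1, Otp, Sim1) and 2 in replicate 2 (Hmx2, Six6), beside 2.42% and 0.728% of all tested genes. Deposited intervals were apart with replicate 1 higher for the same 3 members, beside 22.6% of genes, and with replicate 2 higher for Nr5a1 and Six6, beside 3.34% of genes.

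The median log2(TPM + 1) ratio of replicate 1 over replicate 2 was 0.08 over the 9 members, beside 0.10 over all tested genes, with 5 members on the positive and 4 on the negative side. The median size of the ratio, without its sign, was 0.43 over the members and 0.13 over all tested genes. The median over all tested genes was -0.002 with TMM-scaled counts. Scaled that way, the log2 ratios were 1.99 for Sim1, 1.41 for Fezf1 and 1.39 for Otp, and -1.19 for Six6, -1.17 for Hmx2, -0.87 for Hmx3 and -0.83 for Nr5a1, so no direction changed.

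**Figure D2:**
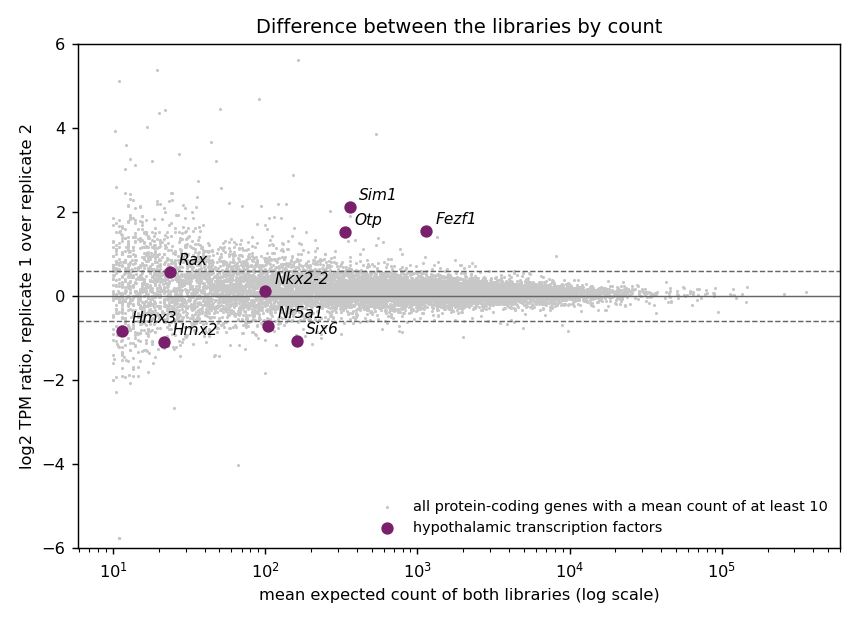
Log2 TPM ratio of replicate 1 over replicate 2 against the mean expected count (log axis) for 14552 tested protein-coding genes (grey, with 14 genes listed at 0 in 1 library left out) and the 9 members tested (purple). Dashed lines mark 1.5-fold. Sim1, Otp and Fezf1 lie above the upper line and Six6, Nr5a1, Hmx2 and Hmx3 below the lower one.

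Other transcription factors of the hypothalamus differed between the libraries in both directions too. Of 20 with enough reads, 5 were at least 1.5-fold higher in replicate 1 and 4 in replicate 2, to be read beside 6.62% and 2.03% of all tested genes. Those higher in replicate 1, named after their values were seen, were Lmx1b, Barhl1, Sim2, Foxb1 and Irx5, with overlapping deposited intervals for Lmx1b. Sim2 had 23 and 8 counts in replicates 1 and 2. Barhl1, which marks the mammillary and subthalamic region, had 3.75 and 1.04 TPM in replicates 1 and 2, and Foxb1, a gene of the mammillary body, 2.68 and 1.28 TPM.

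Those higher in replicate 2, also named after their values were seen, were Bsx, Sox14, Nkx2-1 and Nr0b1, with overlapping deposited intervals for Bsx and Nr0b1. Nkx2-1, which marks the tuberal hypothalamus and also the medial ganglionic eminence, had 10.5 TPM in replicate 1 against 18.6 TPM in replicate 2. Sox14 had 3.53 and 6.65 TPM in replicates 1 and 2, and Bsx, a factor of arcuate neurons, 0.70 and 1.65 TPM. The highest genes of this list, Isl1, Arnt2, Pou3f2 and Six3, differed by less than 1.5-fold. Arnt2, the dimer partner of SIM1, had 44.3 TPM in replicate 1 against 36.0 TPM in replicate 2, and Pou3f2, which acts downstream of both in mouse, had 32.2 and 36.2 TPM.

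Among hormones, peptides and enzymes of the hypothalamus, 10 of 18 reached 1 TPM in both libraries, and 13 had enough reads for a ratio. Higher in replicate 1 by at least 1.5-fold were 4 of them, Cartpt, Trh, Bdnf and Avp, and higher in replicate 2 were Pomc and Pmch. Of all tested genes, 6.62% were so in replicate 1 and 2.03% in replicate 2. Avp, with 15.7 and 11 counts and overlapping deposited intervals, was 1.41-fold higher in replicate 1 with TMM-scaled counts. These genes were named after their values were seen, except Pomc and Cartpt, which with Sst and Npy lead the list by mean level. Sst, the somatostatin gene, which is also made by telencephalic interneurons, had 210 TPM in replicate 1 against 144 TPM in replicate 2. Trh, the thyrotropin-releasing hormone of paraventricular neurons, had 8.02 TPM in replicate 1 against 3.37 TPM in replicate 2. Pomc, the precursor of melanocortins in arcuate neurons, had 10.3 TPM in replicate 1 against 19.1 TPM in replicate 2. Pmch, the melanin-concentrating hormone gene of lateral hypothalamic neurons, had 2.81 TPM in replicate 1 against 10.0 TPM in replicate 2. Of the other hormones of paraventricular neurons, Avp had 1.48 TPM in replicate 1 against 0.95 TPM in replicate 2, and Crh 0.22 and 0.30 TPM. Oxt had 0.23 TPM in replicate 1 and no count in replicate 2, where an allowance of 3 counts would be 0.283 TPM. Ghrh, the hormone gene of the HMX neurons, had 2.10 and 2.02 TPM in replicates 1 and 2 from 19 and 20 counts.

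**Figure D3:**
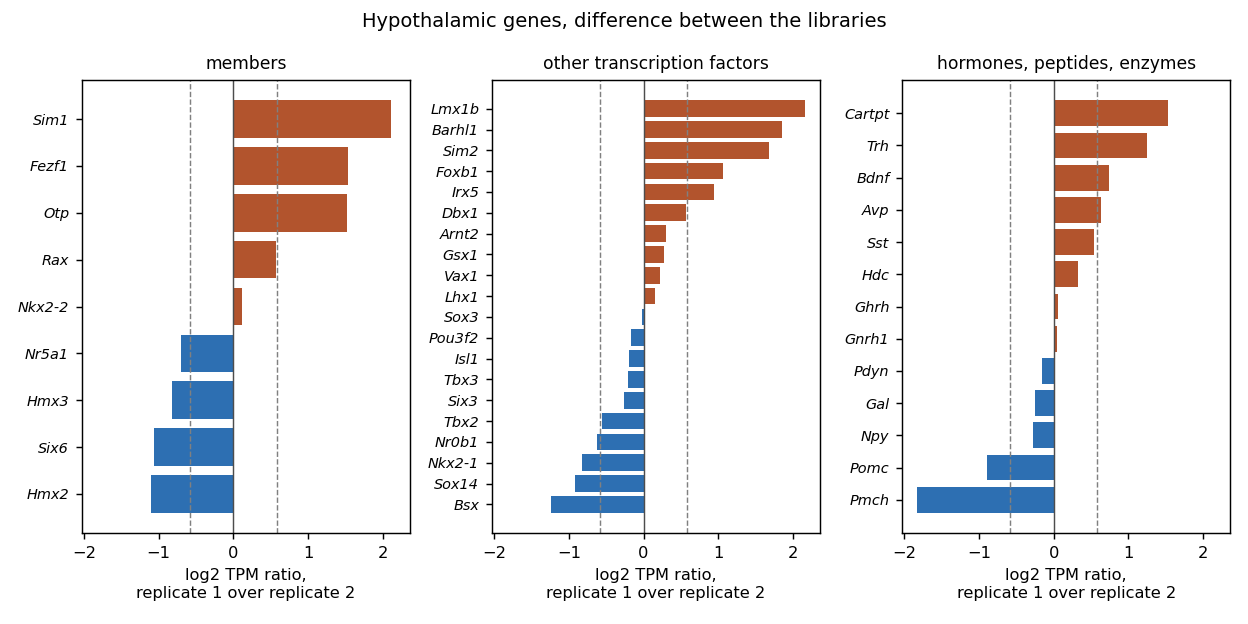
Log2 TPM ratio of replicate 1 over replicate 2, without a pseudocount, for members, other hypothalamic transcription factors, and hypothalamic hormones, peptides and enzymes with a mean count of at least 10 and a value above 0 in both libraries. Brown bars are higher in replicate 1, blue bars higher in replicate 2, and dashed lines mark 1.5-fold. Each panel holds genes past the line on both sides.

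Genes of neighbouring brain regions were set beside the members, since a forebrain dissection may hold these regions. The 11 telencephalic genes had a median of 63.9 TPM and a summed level of 743 TPM in replicate 1 against 772 TPM in replicate 2, and 1 of them, Lhx8, was past 1.5-fold. The 10 genes of the thalamus and prethalamus had a median of 18.4 TPM and summed to 321 TPM in replicate 1 against 391 TPM in replicate 2. Of these, 3 were at least 1.5-fold higher in replicate 2 and none in replicate 1. They were Tcf7l2 (108 TPM in replicate 1 against 174 TPM in replicate 2), Gbx2 (15.9 and 24.4 TPM) and Rora (6.01 and 10.3 TPM). Of 12 signals of the ventral midline and forebrain, 11 had enough reads for a ratio. Among them, Wnt8b, Gli1 and Bmp4 were past 1.5-fold in replicate 1, and Fgf18 and Fgf8 in replicate 2. Deposited intervals overlapped for Bmp4, Fgf18 and Fgf8. The counts for these lists are to be read beside 6.62% of all tested genes in replicate 1 and 2.03% in replicate 2. With TMM-scaled counts, an alternative chosen after seeing the data, Bmp4 (1.13-fold) and Fgf8 (1.41-fold) were not past 1.5-fold. Shh itself had 1.02 TPM in replicate 1 against 0.80 TPM in replicate 2. The part of these regions in the members' differences was not tested.

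Most members also act outside the hypothalamus, and genes of those tissues were read for comparison. Of 12 eye genes, read for Rax and Six6, 10 were under 1 TPM in both libraries, Crx and Cryaa had no count, and the exceptions were Rlbp1 (30.7 TPM in replicate 1 against 39.0 TPM in replicate 2) and Mitf (1.46 and 0.76 TPM). They summed to 32.8 TPM in replicate 1 against 40.4 TPM in replicate 2. The 12 genes of the anterior pituitary, where Six6 and Nr5a1 are used, were under 1 TPM in both libraries, and 5 of them had no count in either. They summed to 0.50 TPM in replicate 1 against 0.55 TPM in replicate 2, with Cga, the shared subunit of the glycoprotein hormones, at 0.18 and 0.11 TPM.

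Steroid cell genes, read for Nr5a1, were under 1 TPM in both libraries for 5 of 7, with Inha at 6.70 TPM in replicate 1 against 4.8 TPM in replicate 2 and Star at 2.41 and 2.24 TPM. They summed to 10.1 TPM in replicate 1 against 7.43 TPM in replicate 2. Inner ear and pharyngeal genes, read for Hmx2 and Hmx3, were under 1 TPM in both for 7 of 8, and summed to 1.74 TPM in replicate 1 against 3.54 TPM in replicate 2. The exception was Gata3, at 1.19 TPM in replicate 1 against 2.67 TPM in replicate 2. It was 2.24-fold higher in replicate 2 with overlapping deposited intervals, to be read beside 2.03% of all tested genes at least 1.5-fold higher there. All 11 hindbrain and spinal cord genes, where Sim1 and Nkx2-2 mark a class of ventral interneurons, were under 1 TPM in both, and summed to 1.87 TPM in replicate 1 against 1.19 TPM in replicate 2.

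Genes of oligodendrocyte precursors, in which Nkx2-2 also acts, summed to 21.1 TPM in replicate 1 against 21.4 TPM in replicate 2. None of the 7 was past 1.5-fold, beside 8.65% of all tested genes in either direction. Olig2 had 5.52 and 7.09 TPM in replicates 1 and 2 and Sox10 0.41 and 0.38 TPM. The 6 genes of the olfactory epithelium, chosen after the values of Fezf1 were seen, were all under 1 TPM in both libraries and summed to 2.25 TPM in replicate 1 against 2.01 TPM in replicate 2. Omp, the defining marker of mature olfactory neurons, had 0.35 and 0.42 TPM in replicates 1 and 2. The part of any of these tissues in the members' levels was not tested beyond these values.

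**Figure D4:**
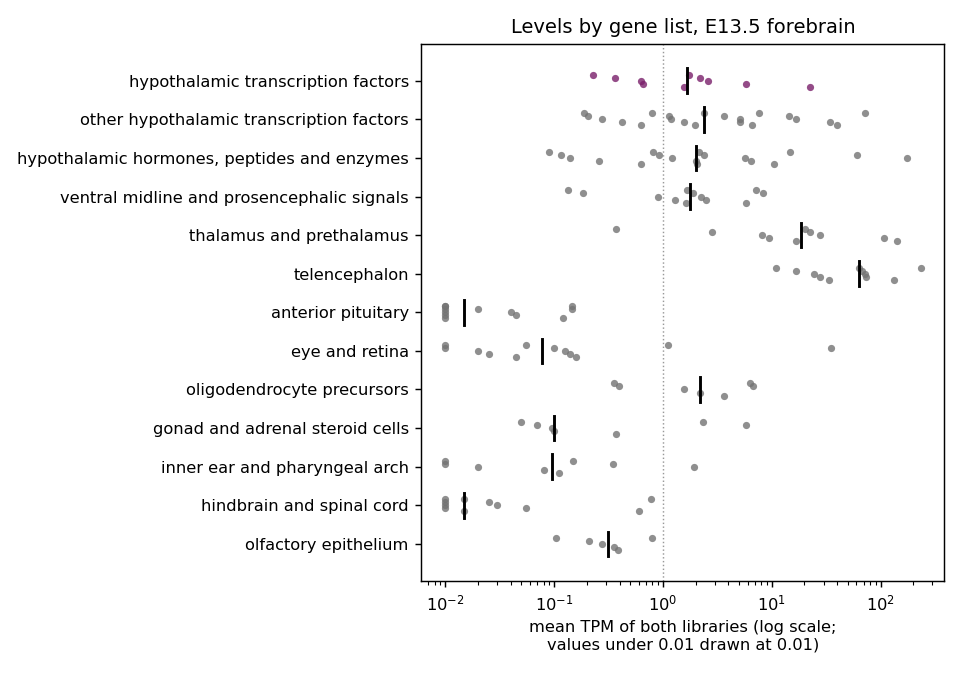
Mean TPM of both libraries for each gene of the members (purple) and of the other gene lists (grey) on a log axis, with list medians as black bars and 1 TPM as a dotted line. The members spread from 0.23 to 22.7 TPM around a median of 1.66 TPM, below the telencephalic median of 63.9 TPM.

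Several members belong to small families whose other genes were read in the same libraries. Fezf2, the close relative of Fezf1 that specifies deep cortical neurons, had 44.1 TPM in replicate 1 against 49.9 TPM in replicate 2, so the relatives were on opposite sides of equality between the libraries. On the log2(TPM + 1) scale Fezf1 lay 0.38 below Fezf2 in replicate 1 and 2.01 below it in replicate 2. Six6 lay below Six3, a factor of the anterior forebrain, and their mean difference on this scale was -2.73 ± 0.29 (SD, n = 2). Six3 had 15.3 TPM in replicate 1 against 18.4 TPM in replicate 2. Nkx2-2 and Nkx2-4 lay below Nkx2-1, with mean differences on this scale of -2.05 ± 0.60 for Nkx2-2 and -3.62 ± 0.29 for Nkx2-4 (SD, n = 2), the second of which was -5.58 with a pseudocount of 0.1.

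Sim1 exceeded Sim2, its other mouse relative, in both libraries, with 0.29 TPM of Sim2 in replicate 1 and 0.09 TPM in replicate 2, so that both were higher in replicate 1. Nr5a2, the relative of Nr5a1, had 0.29 TPM in replicate 1 against 0.39 TPM in replicate 2, and Nr5a1 exceeded it by 0.92 ± 0.22 on the log2(TPM + 1) scale (SD, n = 2), which understates differences between low genes. Hmx1, the third gene of the Hmx family and one of the eye and ear, was listed at 0 in both libraries. The allowance of 3 counts set here for a count of 0 would be 0.156 TPM in replicate 1 or 0.143 TPM in replicate 2.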

How the data were processed

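Total RNA longer than 200 bases from forebrain was sequenced in 2 libraries of 1 group, and replicate numbers were taken from the labels. Per the metadata deposited with the files, the authors quantified transcriptome alignments to mm10 with GENCODE M4. Nothing used here states the aligner, its version or the strand setting. The authors deposited expected counts, which are estimated reads with shared reads divided between features. The deposited TPM and FPKM values are the authors' length-normalised abundances. Deposited posterior mean TPM and interval bounds, called a score here, are on the TPM scale, and the level of the bounds is not stated. The deposited percent column (share of a transcript in its gene) was not used, and shares were recomputed from TPM.

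Each gene table has 69691 rows, 43346 of them mouse genes, of which 42462 matched GENCODE M21 (GRCm38, the assembly of mm10) by identifier. That release gave symbols, coordinates and exons, which can differ from M4. Each symbol was represented by its most abundant identifier. The 26345 other rows (spike-ins and rows named by a number) entered only total counts and TPM.

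Ratios are replicate 1 over replicate 2, as log2(TPM + 1) or as TPM without a pseudocount for folds, for genes with a mean count of at least 10. Counting intervals are exact binomial (95%) on rounded counts, and a count of 0 was given a fixed allowance of 3 counts, which is not an upper limit. Both cover counting error only. Rounded counts of mouse genes were scaled with DESeq2 1.42.0 size factors and edgeR 4.0.16 TMM factors (R 4.3.3), with no model test. Fold calls on TMM-scaled counts were also run on simulated counts with counting error only. That simulation does not cover TPM ratios or other variation between libraries. Software was Python 3.11.15 with scipy 1.17.1, pandas 2.3.3, numpy 2.4.6 and matplotlib 3.10.9.

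Members, 11 gene lists and 10 pairs of relatives were chosen with earlier results of these data known, and 1 list was added after seeing values. A listed gene is not reported here and was left out of the lists. By the rule for named genes every member is named, and of each list the 4 highest genes and the lowest, of which fewer are printed. Other list genes are named for a known role or after their values were seen. Neighbouring genes are named only where they bear on a member. With 2 libraries no genes of similar pattern were sought.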

Additional observations from a re-analysis of the deposited data

How the results depend on the processing

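No paired analysis was possible because the labels give 1 group. Each member kept its direction between the libraries with pseudocounts of 0.1 or none, and with TMM- or DESeq2-scaled counts. The counts of members at least 1.5-fold higher in replicate 1 stayed at 3 under all 5 alternatives, and those in replicate 2 (4) were 2 at a threshold of 2-fold and 5 with no count minimum. The median log2 ratio over members, 0.08, was -0.064 with no count minimum, which adds Nkx2-4, and 1.27 with a mean count of at least 100. Over all tested genes the calls past 1.5-fold were 964 in replicate 1 and 296 in replicate 2, and 648 and 346 with TMM-scaled counts. Members at 1 TPM in both libraries (5) were 3 at a threshold of 2 TPM, 7 at 0.5 TPM and 6 without replicate 2. Low counts limit Nkx2-4, Hmx3, Hmx2 and Rax, whose deposited intervals overlapped between the libraries.

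By the mean of log2 values in place of the median, levels were 2.00 TPM for the members, 3.89 for other hypothalamic factors, 3.26 for hormones and peptides, 2.07 for signals, 15.9 for thalamus and prethalamus, 48.2 for telencephalon, 0.0423 for pituitary, 0.512 for eye, 0.703 for steroid cells, 0.239 for inner ear and 0.115 for hindbrain. The cause was not tested. With 1 library left out, medians ranged from 1.16 to 1.40 TPM for members, 1.65 to 3.53 for other hypothalamic factors, 1.99 to 2.02 for hormones and peptides, 1.76 to 1.91 for signals, 17.7 to 17.7 for thalamus and prethalamus, 59.6 to 68.2 for telencephalon, 0 to 0.025 for pituitary, 1.79 to 2.64 for oligodendrocyte precursors, 0.05 to 0.055 for eye, 0.11 to 0.18 for steroid cells, 0.04 to 0.115 for inner ear and 0 to 0.02 for hindbrain. Differences between relatives kept their sign under the 4 alternatives run. With a pseudocount of 0.1 they were 2.75 for Sim1 minus Sim2 (1.28 with 1), 3.21 for Nkx2-2 minus Nkx2-4 (1.57), -5.58 for Nkx2-4 minus Nkx2-1 (-3.62) and 1.89 for Nr5a1 minus Nr5a2 (0.92), which was 0.625 with posterior means. Posterior mean TPM moved the leading transcript's share from 73.8% to 64.0% for Nkx2-2, from 77.2% to 60.0% for Nr5a1 and from 100% to 68.6% for Hmx2.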
